A study of Mus musculus with 16 samples.

Results

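The genes examined here encode receptors that raise or restrain the activation of T cells, and they were chosen by name: Cd28, Icos, Ctla4, Pdcd1, Lag3, Cd160, Btla, Havcr2, Cd5 and Cd69. Their symbols were looked up in the table of bead intensities, which holds 18138 genes. Of the 10 genes listed, 9 had an entry, and Cd5 was not analysed here. Of those 9, 8 were above background on at least 2 of the 16 arrays and were tested, among 7395 genes tested in all. Havcr2 was above background on 0 of 16 arrays.

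A T cell needs a signal from its antigen receptor and a second, costimulatory signal to become fully activated. CD28 and its relative ICOS give such signals, and both can recruit phosphoinositide 3-kinase, which lies upstream of the kinase Akt. CTLA-4, PD-1, LAG-3, BTLA and TIM-3 restrain the response, mostly when T cells have been activated, and they are known as checkpoint receptors. CD69 appears on the surface soon after stimulation and is widely used as an early activation marker.

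D10 is a mouse helper T cell line of the Th2 type, so all samples come from 1 line. Control cells and cells pre-incubated with the Akt inhibitor Akti1/2 (10 µM, 1 h) were stimulated with biotinylated antibodies to CD3 and CD28 and streptavidin for 0, 2, 6 or 12 h. Each of the 8 groups had 2 arrays. Akti1/2 is an allosteric inhibitor of Akt1 and Akt2, and it was present in the treated cells at 0 h as well. The study describes the control cells once as untreated and once as given solvent, and the antibody to CD28 was part of the stimulus in both arms. The sources used here do not say whether the 2 samples of a group were separate cultures, and the p-values therefore measure only the spread between these samples, which may be technical. There were 2 chips of 8 arrays, and every group had 1 array on either chip. Mean intensity ranged from 393.8 to 544.0 per array, and 6288 to 6907 genes per array were above background. A gene was taken as above background where under 0.01 of the negative control beads were at least as bright. Levels of single genes below are log2 intensities after background correction and quantile normalization with limma's neqc, given for replicate 1 and then replicate 2. Differences are on the same log2 scale, with the standard error (SE) of the fit, n = 2 arrays per group, and a gene was called at a Benjamini-Hochberg (BH) adjusted p under 0.05. The number of arrays limits the precision. Levels of different genes were not set against each other, since each bead type has its own brightness.

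The cells had the markers of their label, apart from Thy1 and Ccr4. Of 7 T cell markers, 5 (Cd3d, Cd3e, Cd3g, Cd247 and Lck) were above background on all 16 arrays. Cd4 was above background on 13, while Thy1 was above background on 0. Of 6 Th2 markers, 5 were above background on all 16 arrays, Gata3, Il4, Il5 and Il13 among them, and Ccr4 was on 0. The CD8 T cell genes Cd8a and Cd8b1, the regulatory T cell gene Foxp3, the Th1 genes Tbx21 and Ifng and the NK cell genes Ncr1 and Klrb1c were above background on 0 of 16 arrays. Of the 3 B cell markers with an entry, Ms4a1 was above background on 1 array and the others on 0.

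Markers of 2 other cell types moved with the inhibitor. Of 2 erythroid markers, Hba-a1, a chain of haemoglobin, was above background on all 16 arrays and Hbb-b1 on 0. Hba-a1 was 10.57 and 10.60 in control cells at 0 h, 10.59 and 10.56 at 2 h, 10.09 and 10.10 at 6 h, then 9.12 and 9.19 at 12 h. With Akti1/2 it was 10.66 and 10.67, 9.94 and 10.07, 8.73 and 8.67, and 6.80 and 7.31 at the same times. Hba-a1 was lower with Akti1/2 on both arrays from 2 h on, with differences of -0.57, -1.40 and -2.099 at 2, 6 and 12 h, each ± 0.14 (limma, BH-adjusted p = 0.0102, 1.44e-05 and 3.19e-07). Summed on the linear scale after the same correction and normalization, the 2 erythroid genes were 1553.2 and 1582.1, 1575.2 and 1537.7, 1123.8 and 1125.3, and 582.7 and 618.6 in control cells, and 1651.5 and 1660.1, 1023.3 and 1110.4, 459.2 and 430.6, and 142.4 and 184.8 with Akti1/2. Of 5 myeloid markers, Cd68 was above background on 15 arrays, and Csf1r, Lyz2, Itgam and Itgax on 0. Cd68 was higher with Akti1/2 by 0.75 ± 0.24 at 6 h (limma, BH-adjusted p = 0.0258) and by 1.42 ± 0.24 at 12 h (BH-adjusted p = 0.000351). The same sum over the myeloid list was 147.8 and 163.9, 160.1 and 179.8, 129.5 and 157.1, and 151.5 and 157.1 in control cells, and 152.8 and 170.4, 142.3 and 144, 190.7 and 158.3, and 256.4 and 238.6 with Akti1/2. Among the T cell markers, Cd3e was lower with Akti1/2 by 0.87 ± 0.11 at 2 h, 0.48 ± 0.11 at 6 h and 0.61 ± 0.11 at 12 h (BH-adjusted p = 0.00019, 0.00389 and 0.000466), whereas the difference of Cd3d lay between -0.21 and 0.049 at these times and did not pass. Lck was lower at 12 h (-0.65 ± 0.14, BH-adjusted p = 0.00221), and Cd3g, Cd247 and Cd4 were not called against control cells at any time. The same sum over the T cell list was 20973.4 and 21433.1, 22401.5 and 21926.7, 20096.6 and 19695.9, and 18664 and 19002.3 in control cells, and 22960.7 and 22317.4, 20590.6 and 18588.9, 17118.7 and 20357.6, and 16169.5 and 15945 with Akti1/2. Both treated arrays were below both control arrays in this sum at 2 and 12 h. The same sum over the Th2 list was 6419.3 and 6469.9, 12369.4 and 11288, 18245.4 and 21950.2, and 20675.3 and 18756.9 in control cells. With Akti1/2 it was 6730.3 and 6558.4, 12643.7 and 13516.6, 11464.4 and 12111.7, and 11705.8 and 11198.8. At 12 h the treated arrays lay below the control arrays for Il5, Il13 and Gata3, and above them for Il4 and Il1rl1. The part of these genes in the results on the receptors was not tested.

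Cd28, Ctla4 and Icos share the band 1qC2 of chromosome 1, and the RefSeq annotation of GRCm38.p6 has 0 other protein-coding genes between Cd28 and Ctla4 and 0 between Ctla4 and Icos. Pdcd1 lies in 1qD, Lag3 in 6qF2, Cd69 in 6qF3, Cd160 in 3qF2.1, Btla in 16qB5 and Havcr2 in 11qB1.1. Lag3 and Cd69 are both on chromosome 6, with 65 protein-coding genes between them.

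Ctla4 and Cd160 had the largest differences with Akti1/2 among the receptor genes in either direction at 12 h, so the 250 bases before their annotated starts are printed here, from RefSeq (GRCm38.p6). They are written 5′ to 3′ on the strand of the gene, in lower case. Capitals mark GGAAA or its reverse complement TTTCC, the core letters that NFAT factors bind, which act downstream of the antigen receptor. Ctla4 has 1 annotated start in the promoter table (chr1:60908775-60909024, plus strand). Cd160 has 2 starts (chr3:96829352-96829601 and chr3:96814522-96814771, both minus strand).
Ctla4: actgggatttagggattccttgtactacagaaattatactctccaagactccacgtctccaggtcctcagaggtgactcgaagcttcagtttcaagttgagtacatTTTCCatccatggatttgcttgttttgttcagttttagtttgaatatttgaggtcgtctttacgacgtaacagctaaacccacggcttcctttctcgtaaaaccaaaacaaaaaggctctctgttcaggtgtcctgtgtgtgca
Cd160, start 1: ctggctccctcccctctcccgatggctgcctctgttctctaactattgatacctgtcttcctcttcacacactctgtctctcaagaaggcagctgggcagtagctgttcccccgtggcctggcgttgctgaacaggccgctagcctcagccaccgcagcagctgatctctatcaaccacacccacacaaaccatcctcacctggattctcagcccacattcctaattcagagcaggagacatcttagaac
Cd160, start 2: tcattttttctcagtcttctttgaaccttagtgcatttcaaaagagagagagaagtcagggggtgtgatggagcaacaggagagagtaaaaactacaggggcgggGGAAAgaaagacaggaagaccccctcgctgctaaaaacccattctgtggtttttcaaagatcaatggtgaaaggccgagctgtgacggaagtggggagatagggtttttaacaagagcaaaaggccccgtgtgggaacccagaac
The Ctla4 window held 1 match, Cd160 start 1 held 0 and Cd160 start 2 held 1. Of 32851 promoter windows of this length, 55.6% held at least 1, so a match is common. Further letters were searched on both strands. These were TGANTCA for AP-1 (in 6.75% of all windows) and GTAAACA for FOXO factors (3.17%), neither of which contains the NFAT core. Both had 0 matches in these windows. Such counts describe the letters of this window only. Of the 10 genes, 6 had a window in that table.

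Cd28 was higher with Akti1/2 at every time after stimulation, by 1.94- to 2.66-fold, while without the inhibitor no change from 0 h was called. In control cells its log2 intensity was 9.79 and 9.80 at 0 h, 10.40 and 10.19 at 2 h, 10.01 and 9.89 at 6 h, then 9.85 and 9.71 at 12 h. Under Akti1/2 the values were 9.66 and 10.11 at 0 h, 11.27 and 11.24 at 2 h, 11.18 and 11.29 at 6 h, then 11.37 and 11.01 at 12 h. The arms overlapped at 0 h, and all 6 stimulated arrays with Akti1/2 lay above every control array. The difference was 0.092 ± 0.16 at 0 h (BH-adjusted p = 0.993), 0.96 ± 0.16 at 2 h (1.94-fold, limma, BH-adjusted p = 0.00113), 1.29 ± 0.16 at 6 h (2.44-fold, BH-adjusted p = 6.2e-05) and 1.41 ± 0.16 at 12 h (2.66-fold, BH-adjusted p = 1.44e-05). In these bulk samples, a change in the share of cells with a transcript and a change in its amount per cell cannot be told apart. Stimulation alone left Cd28 without a called change from 0 h at any time (0.50, 0.16 and -0.013 at 2, 6 and 12 h, each ± 0.16), whereas with Akti1/2 it rose by 1.37, 1.35 and 1.31. The change of the control cells at 2 h passed in 4 of 22 alternatives, with an adjusted p down to 0.0281. The difference between these responses, tested as an interaction, was 0.87 ± 0.22 at 2 h (BH-adjusted p = 0.0319), 1.19 ± 0.22 at 6 h (BH-adjusted p = 0.00302) and 1.32 ± 0.22 at 12 h (BH-adjusted p = 0.000779). The call at 2 h was lost in 7 of 22 alternatives, 6 of which left out 1 array of the 0 or 2 h groups, and the adjusted p then reached 0.110.

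The table holds a further entry, LOC100048845, a predicted gene named as similar to CD28 antigen, under the same Illumina search key as Cd28. Its differences with Akti1/2 were -0.019 ± 0.10 at 0 h, 1.15 ± 0.10 at 2 h, 1.38 ± 0.10 at 6 h and 1.56 ± 0.10 at 12 h. These differences lay near those of Cd28 at each time. In control cells the entry rose by 0.40 ± 0.10 at 2 h (limma, BH-adjusted p = 0.028), where the change of Cd28 did not pass. Whether both entries read the same transcripts was not tested, and the further entry was not counted as another gene.

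Icos, whose product is a costimulator of the CD28 family, had a different course. It was 10.35 and 10.02 in control cells at 0 h, 10.98 and 10.84 at 2 h, 10.98 and 10.93 at 6 h, then 9.80 and 10.01 at 12 h. The treated cells had 9.56 and 10.26, 10.04 and 10.38, 10.97 and 10.88, and 9.83 and 10.40 at these times. Control and Akti1/2 arrays were apart only at 2 h, where the control arrays were higher. The difference at 2 h was -0.70 ± 0.23 (1.63-fold lower, limma, BH-adjusted p = 0.0385), and it was -0.033 ± 0.23 at 6 h (BH-adjusted p = 0.929) and 0.21 ± 0.23 at 12 h (BH-adjusted p = 0.485). Without any 1 of the 2 h arrays the call was lost (BH-adjusted p = 0.0577 to 0.194), as it was with no filter on dim genes (BH-adjusted p = 0.0775). In control cells the change at 2 h was 0.72 ± 0.23 (BH-adjusted p = 0.0657), and it passed in 5 of 22 alternatives. Icos rose in these cells by 0.77 ± 0.23 at 6 h (BH-adjusted p = 0.0261) and fell by 1.00 between 2 and 12 h (BH-adjusted p = 0.00628), a call that was lost without control replicate 1 of 12 h (BH-adjusted p = 0.0548). With Akti1/2 it rose by 1.01 ± 0.23 at 6 h (BH-adjusted p = 0.00505), and its change between 2 and 12 h was -0.094 ± 0.23. No difference in response passed for Icos (-0.43, 0.24 and 0.48, each ± 0.32). The rise in control cells at 6 h was lost without control replicate 2 of 0 h (BH-adjusted p = 0.175) and without either 6 h control array (BH-adjusted p = 0.105 and 0.0839), and with no filter on dim genes (BH-adjusted p = 0.0555). That with Akti1/2 was lost without Akti1/2 replicate 1 of 0 h (BH-adjusted p = 0.0609).

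Ctla4, which encodes a checkpoint receptor that competes with CD28 for its ligands, rose with stimulation in both arms and more so with Akti1/2. In control cells it was 9.25 and 9.25 at 0 h, 9.35 and 9.77 at 2 h, 10.07 and 9.94 at 6 h, then 11.16 and 11.08 at 12 h. The Akti1/2 arrays had 9.61 and 9.48, 10.64 and 10.59, 11.34 and 11.28, and 12.65 and 12.70. Both arrays with Akti1/2 lay above both control arrays at each time, 0 h included, and the level of the control cells at 12 h lay below that of the treated cells at 6 h. The change from 0 h was 0.31 ± 0.13 (BH-adjusted p = 0.144), 0.75 ± 0.13 (BH-adjusted p = 0.00105) and 1.87 ± 0.13 (BH-adjusted p = 6.95e-07) at 2, 6 and 12 h in control cells. With Akti1/2 Ctla4 rose by 1.07, 1.77 and 3.13 at these times, or 8.77-fold at 12 h. Akti1/2 cells exceeded control cells by 0.29 ± 0.13 at 0 h (BH-adjusted p = 0.957), 1.05 ± 0.13 at 2 h (BH-adjusted p = 0.000183), 1.31 ± 0.13 at 6 h (BH-adjusted p = 1.35e-05) and 1.55 ± 0.13 at 12 h (2.94-fold, limma, BH-adjusted p = 1.54e-06). The response was larger with Akti1/2 by 0.76 ± 0.18 at 2 h (BH-adjusted p = 0.0253), 1.02 ± 0.18 at 6 h (BH-adjusted p = 0.00247) and 1.26 ± 0.18 at 12 h (BH-adjusted p = 0.000286). At 2 h this call was lost in 7 of 22 alternatives, each of which left out 1 array of 0 or 2 h, with an adjusted p up to 0.0866.

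**Figure D1:**
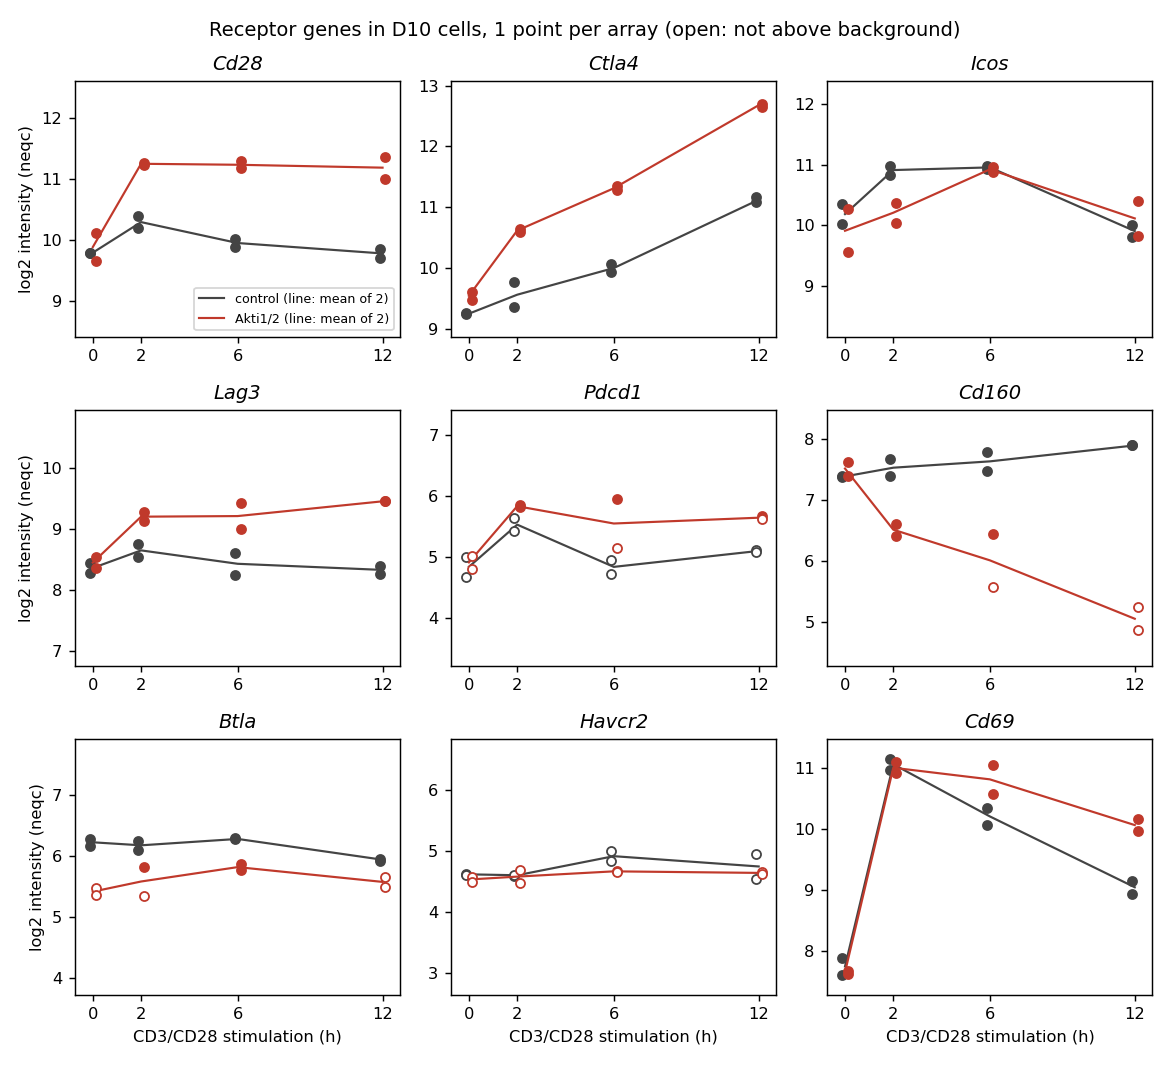
Log2 intensity (vertical axes, each spanning 4.2 units) against hours of CD3/CD28 stimulation for the 9 receptor genes with an entry, 1 point per array, control in grey and Akti1/2 in red, lines through the means of 2 arrays, open points not above background. Cd28, Ctla4 and Lag3 were higher with Akti1/2 at 2, 6 and 12 h, Cd160 was lower, and Havcr2 was open throughout.

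Lag3, a checkpoint receptor that binds MHC class II, had no called change in control cells and rose with Akti1/2 at 2, 6 and 12 h. In control cells it was 8.44 and 8.28 at 0 h, 8.55 and 8.75 at 2 h, 8.25 and 8.61 at 6 h, then 8.39 and 8.26 at 12 h. In treated cells Lag3 was 8.54 and 8.36, 9.28 and 9.13, 9.0 and 9.43, and 9.46 and 9.46. The arms overlapped at 0 h and were apart at the 3 later times, at which all 6 arrays with Akti1/2 lay above every control array. The difference was 0.089 ± 0.16 at 0 h (BH-adjusted p = 0.993), 0.55 ± 0.16 at 2 h (BH-adjusted p = 0.0228), 0.78 ± 0.16 at 6 h (BH-adjusted p = 0.00226) and 1.13 ± 0.16 at 12 h (2.18-fold, limma, BH-adjusted p = 0.0001). The call at 2 h was lost without control replicate 1 (BH-adjusted p = 0.138) and without either Akti1/2 array of that time (BH-adjusted p = 0.105 and 0.0554). The difference in response was 0.46 ± 0.23 at 2 h (BH-adjusted p = 0.215), 0.70 ± 0.23 at 6 h (BH-adjusted p = 0.0483) and 1.04 ± 0.23 at 12 h (BH-adjusted p = 0.00408). That at 6 h was lost in 17 of 22 alternatives, among them the replicate block (BH-adjusted p = 0.057) and the chip block (BH-adjusted p = 0.0502).

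Cd160, which encodes a receptor of NK and T cells that shares the ligand HVEM with BTLA, was the 1 receptor gene that was lower than at 0 h after stimulation with Akti1/2. It was 7.39 and 7.40 in control cells at 0 h, 7.39 and 7.68 at 2 h, 7.48 and 7.80 at 6 h, then 7.90 and 7.90 at 12 h. With Akti1/2 it was 7.64 and 7.41, 6.42 and 6.62, 6.44 and 5.58, and 5.25 and 4.86. The treated arrays lay below the control arrays at each time after stimulation. Both 12 h arrays and replicate 2 of 6 h with Akti1/2 were not above background. The difference was 0.13 ± 0.23 at 0 h (BH-adjusted p = 0.993), -1.02 ± 0.23 at 2 h (BH-adjusted p = 0.0077) and -1.63 ± 0.23 at 6 h (limma, BH-adjusted p = 0.000207). The value at 6 h includes the treated array not above background, and on chip 1, where both arrays were above it, it was -1.04. At 12 h only a bound can be given, and Cd160 was at least 4.95-fold lower with Akti1/2 (BH-adjusted p = 1.52e-06), taken against the lowest signal above background on each array. Without control replicate 2 of 2 h the call at that time was lost (BH-adjusted p = 0.0569). In control cells the change at 12 h was 0.51 ± 0.23 (BH-adjusted p = 0.129), and it passed in 3 of 21 alternatives. The change from 0 h differed between the arms by -1.15 ± 0.33 at 2 h (BH-adjusted p = 0.0523), -1.76 ± 0.33 at 6 h (BH-adjusted p = 0.00342) and -2.98 ± 0.33 at 12 h (BH-adjusted p = 5.4e-05), the last of which rests on Akti1/2 arrays not above background and is no measured size. The difference at 2 h passed in 3 of 21 alternatives. Hba-a1, described above, fell with Akti1/2 at the same times, and in control cells it fell by 1.43 at 12 h (BH-adjusted p = 1.28e-05), where Cd160 had its highest values.

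Btla and Pdcd1 were near background. Btla, the inhibitory partner of HVEM, was 6.29 and 6.17, 6.10 and 6.26, 6.28 and 6.29, and 5.96 and 5.93 in control cells, and above background on all of them. With Akti1/2 it was 5.47 and 5.36 at 0 h, 5.35 and 5.81 at 2 h, 5.88 and 5.76 at 6 h, then 5.49 and 5.66 at 12 h, and above background on 3 of these 8 arrays. Btla was lower with Akti1/2 on both arrays at every time, already before stimulation. The difference was -0.81 ± 0.14 at 0 h (at least 1.49-fold lower, limma, BH-adjusted p = 0.0853), where 4 genes in all (0.0541%) were called by limma and 381 had an unadjusted p under 0.05. It was -0.59 ± 0.14 at 2 h (BH-adjusted p = 0.00864), -0.46 ± 0.14 at 6 h (BH-adjusted p = 0.0208) and -0.36 ± 0.14 at 12 h (at least 1.27-fold lower, BH-adjusted p = 0.0477). The difference at 0 h passed without either Akti1/2 array of 2 h (BH-adjusted p = 0.0151 and 0.0149). That at 2 h was lost with arrays scaled to the same mean (BH-adjusted p = 0.0618), without control replicate 2 (BH-adjusted p = 0.0604) and without Akti1/2 replicate 1 (BH-adjusted p = 0.069). That at 6 h was lost in 5 of 21 alternatives and that at 12 h in 18 of 21. No difference in response passed for Btla.

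Pdcd1, which encodes PD-1, was above background on 4 of 16 arrays, all of them with Akti1/2, and it was tested only because of these. They were both 2 h arrays, replicate 2 of 6 h and replicate 1 of 12 h. It was 5.0 and 4.66, 5.42 and 5.63, 4.95 and 4.71, and 5.11 and 5.08 in control cells, and 4.8 and 5.01, 5.81 and 5.85, 5.14 and 5.95, and 5.66 and 5.62 with Akti1/2. The treated arrays lay above the control arrays at 2, 6 and 12 h. No control array was above background, so that a higher value with Akti1/2 was fixed by the filter, and its calls at 6 and 12 h are no finding. The bound on the fold was under 1 at both times, and none is given. Havcr2, which encodes TIM-3, lay between 4.48 and 5.0 on all arrays, none of them above background, and was not tested.

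Cd69 had the largest response to stimulation among the receptor genes at 2 and 6 h, and it declined after 2 h, less so with Akti1/2. At 12 h the change of Ctla4 was larger, 1.87 against 1.30 in control cells and 3.13 against 2.42 with Akti1/2. In control cells Cd69 was 7.89 and 7.60 at 0 h, 11.16 and 10.98 at 2 h, 10.35 and 10.07 at 6 h, then 9.15 and 8.94 at 12 h. In treated cells Cd69 was 7.67 and 7.62, 11.10 and 10.92, 10.59 and 11.05, and 9.97 and 10.16. The arms overlapped at 0 and 2 h and were apart at 6 and 12 h. At 2 h the rise was 3.32 ± 0.17 in control cells (10.0-fold, BH-adjusted p = 1.03e-07) and 3.36 ± 0.17 with Akti1/2 (10.3-fold, limma, BH-adjusted p = 1.39e-07). Between 2 and 12 h Cd69 fell by 2.02 in control cells (4.06-fold, BH-adjusted p = 5.88e-06) and by 0.94 with Akti1/2 (1.92-fold, BH-adjusted p = 0.000681). Akti1/2 cells exceeded control cells by 0.61 ± 0.17 at 6 h (BH-adjusted p = 0.0137) and by 1.02 ± 0.17 at 12 h (2.03-fold, BH-adjusted p = 0.000338), and the difference in response was 1.12 ± 0.24 at 12 h (BH-adjusted p = 0.00387). At 6 h the difference rested on the second replicates. It was lost without control replicate 2 (0.47, BH-adjusted p = 0.113) and without Akti1/2 replicate 2 (0.38, BH-adjusted p = 0.128). The difference in response at 6 h was 0.70 ± 0.24 (BH-adjusted p = 0.0583), and it passed in 3 of 22 alternatives.

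**Figure D2:**
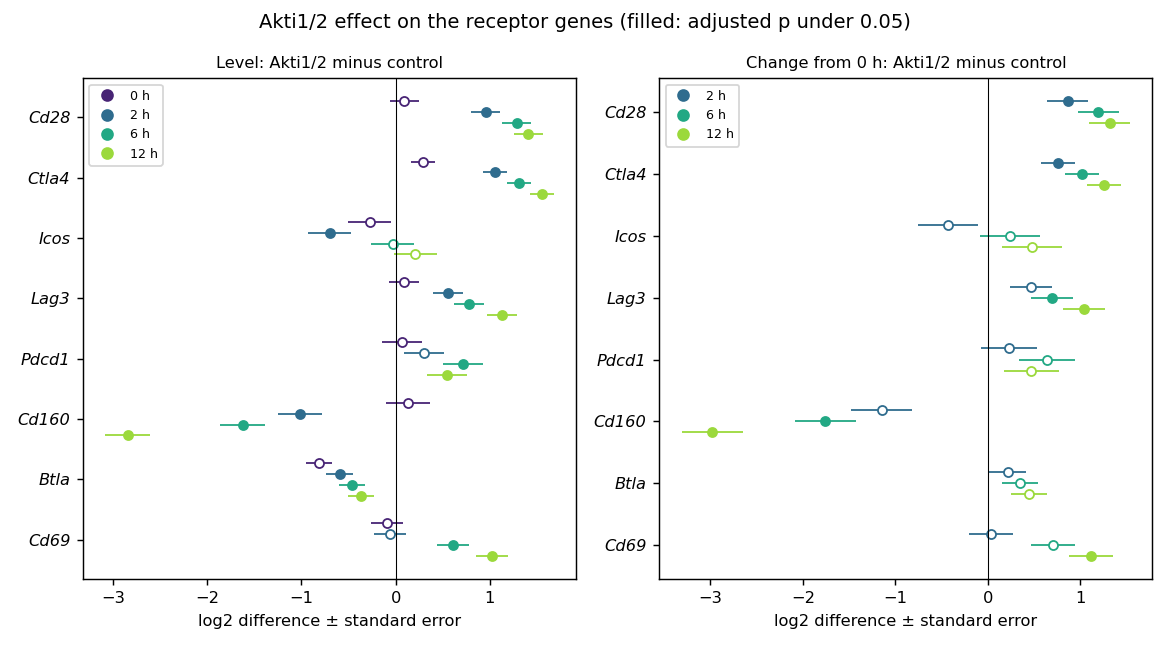
Log2 difference with its standard error (horizontal axes) for the 8 receptor genes tested, Akti1/2 minus control at 0, 2, 6 and 12 h (left) and the change from 0 h with Akti1/2 minus that without (right), filled where limma's adjusted p was under 0.05. At 12 h Ctla4 had the highest difference (1.55), and none was filled at 0 h. The Cd160 points at 12 h rest on Akti1/2 arrays not above background and stand for a difference of at least 4.95-fold in the left panel. The Btla points at 0 and 12 h (left) and all on the right rest on such arrays as well. The Cd160 points at 6 h and the Btla point at 2 h (left) rest on them in part. All Pdcd1 points in both panels rest on control arrays not above background, and the filled ones are no finding.

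Counted together, 0 of the 8 receptor genes tested differed between the arms at 0 h by limma, where 0.0541% of all genes tested were called. At 2 h, 3 were higher with Akti1/2 (Cd28, Ctla4 and Lag3) and 3 lower (Icos, Cd160 and Btla). Of all genes tested, 28.4% were called at that time, 13.5% as higher and 14.9% as lower. At both 6 and 12 h, 5 were higher (Cd28, Ctla4, Lag3, Cd69 and Pdcd1) and 2 lower (Cd160 and Btla). The shares of all genes were 37.6% at 6 h (18.8% higher and 18.8% lower) and 49% at 12 h (24.2% higher and 24.8% lower). Of all calls at 6 h, 50.1% were higher, against 60.8% with arrays scaled to the same mean. Pdcd1 passed the filter only through the treated groups and so had to be higher there, and its call at 12 h and that of Btla were lost in most alternatives. Among the genes above background on all 16 arrays, 4 of the 5 receptor genes were called at 6 h, against 44% of all such genes, and 4 of 5 at 12 h, against 56.2%. The comparisons share samples, so their counts are not independent of one another.

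In control cells, of the 8 receptor genes, 1 was called at 2 h (Cd69), 3 at 6 h (Cd69, Ctla4 and Icos) and 2 at 12 h (Cd69 and Ctla4), each of them higher than at 0 h. Of all genes tested, 10.3%, 27.6% and 27.8% were called at these times, and 4.42%, 12.1% and 12.7% were higher. Higher genes made up 43.0% and 44.1% of the calls at 2 and 6 h, and 25.9% and 30.6% with arrays scaled to the same mean. With Akti1/2, 6 were called at 2 h, 8 at 6 h and 6 at 12 h, against 38.7%, 33.3% and 44.5% of all genes. Each of these counts includes Pdcd1, which was not above background at 0 h and passed the filter only through the stimulated Akti1/2 arrays, so it had to be higher there. The 8 at 6 h include Btla, whose call was lost in 14 of 21 alternatives. Cd160 was the 1 that fell at each of these times, where 20.9%, 17.9% and 23.3% of all genes fell and 17.8%, 15.5% and 21.1% rose. A difference in response passed for 2 genes at 2 h, both with the larger value in Akti1/2 cells (8.4% of all genes called, 4.23% in that direction). It passed for 4 at 6 h (19.5% called, 10.3% larger and 9.24% smaller) and for 5 at 12 h (32.5% called, 16.3% larger and 16.2% smaller), with Cd160 the 1 in the smaller direction. The 5 were Cd28, Ctla4, Lag3, Cd69 and Cd160. The larger direction held 50.4%, 52.7% and 50.0% of these calls over all genes at 2, 6 and 12 h, and 64.7%, 71.9% and 60.6% under that scaling. Between 2 and 12 h, 4 genes changed in control cells, with Ctla4 higher and Cd28, Icos and Cd69 lower (28.3% of all genes called, 14.5% higher and 13.8% lower). With Akti1/2, 3 changed, with Ctla4 higher and Cd69 and Cd160 lower (49.5% of all genes called, 25.2% higher and 24.3% lower). The change in Cd28 in control cells (-0.52 ± 0.16, BH-adjusted p = 0.0269) was lost without control replicate 1 of 2 h (BH-adjusted p = 0.15) and without either 12 h control array (BH-adjusted p = 0.0674 and 0.14).

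Every difference could also be read within a chip, over 1 array a group. At 12 h, Akti1/2 minus control was 1.66 on chip 1 and 1.16 on chip 2 for Cd28, 1.57 and 1.54 for Ctla4, 1.19 and 1.06 for Lag3, and 1.03 and 1.01 for Cd69. Cd160 was lower on both chips, with no size given since both Akti1/2 arrays of that time were not above background. These 5 genes kept their direction on both chips at 6 and 12 h. At 6 h the chips lay apart for Cd69 (0.24 on chip 1 and 0.98 on chip 2). Cd160 was -1.04 on chip 1, and no size is given for chip 2, where the Akti1/2 array was not above background. The treated cells at 6 h had the largest median absolute log2 difference between its 2 arrays over the genes tested, 0.212, against 0.125 to 0.162 in the others. Icos was -0.18 on chip 1 and 0.59 on chip 2 at 12 h and had no common direction.

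**Figure D3:**
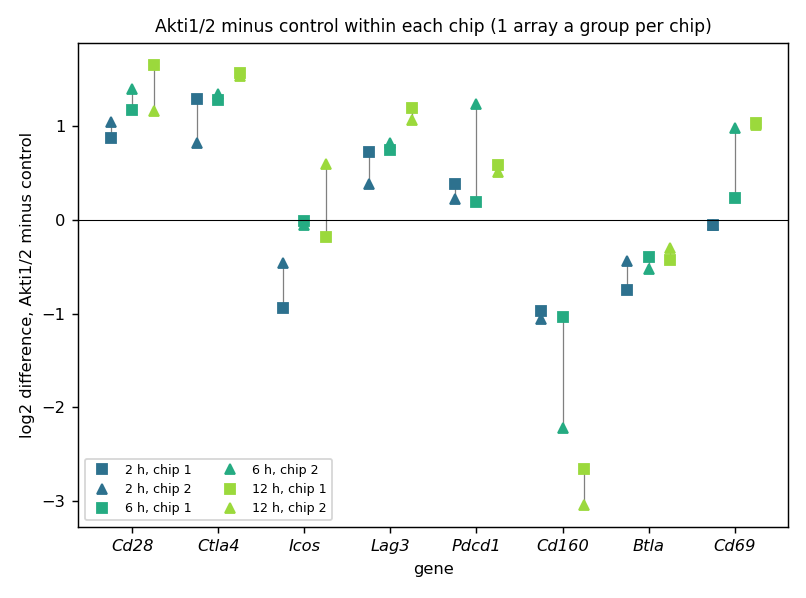
Log2 difference, Akti1/2 minus control, within chip 1 (squares) and chip 2 (triangles) at 2, 6 and 12 h for the 8 receptor genes tested, 1 array per group and chip, grey lines joining the chips. The Cd160 points at 12 h and at 6 h on chip 2 rest on arrays not above background and give no size. The same holds for the Btla points at 12 h and at 2 h on chip 1. It also holds for all Pdcd1 points, through the control cells. Cd69 at 6 h spans 0.24 to 0.98, and the Ctla4 values at 12 h almost coincide.

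The order of the levels also differed between the genes. Cd28 had its 3 highest groups in the stimulated Akti1/2 cells, which overlapped one another (means 11.25, 11.24 and 11.19) and were apart from the next, the control cells at 2 h (10.29). Ctla4 followed time within each arm, and the control cells at 12 h (mean 11.12) came between the treated cells at 6 h (11.31) and 2 h (10.62). For Lag3 the treated cells at 12 h led (9.46), and the control and 0 h groups apart from the 2 h controls overlapped at the bottom (8.33 to 8.45). Cd160 ran from the control cells at 12 h (7.90) to the treated cells at 12 h (5.05, not above background). The 3 stimulated Akti1/2 groups were its lowest, and the control cells at 0 h (7.39) came next above them.

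Across the 8 group means, Cd28 and Lag3 followed each other most closely among the receptor genes (Pearson's r = 0.98), and Lag3 and Cd160 ran opposite (r = -0.95), with the lowest mean of Cd160, in treated cells at 12 h, not above background. Icos was near 0 with Cd160 (r = -0.0089). These correlations describe 8 means of 2 arrays that share the treatment and the times. Over all genes tested, the genes whose means were most like those of Cd28 were LOC100048845 (r = 0.992), Cxcr4 (r = 0.992), a chemokine receptor, and Il16 (r = 0.989). For Ctla4 they were Pcgf1 (r = 0.985), Hax1 (r = 0.98) and 4933434E20Rik (r = 0.974), and for Lag3 Snx13 (r = 0.993), Tgif1 (r = 0.989) and Jdp2 (r = 0.986). The nearest to Cd160 were Cetn4 (r = 0.993), Thex1 (r = 0.99) and S100a1 (r = 0.99), and to Cd69 Nfkbiz (r = 0.986), Nab1 (r = 0.957) and Crk (r = 0.946). For Icos they were Extl2 (r = 0.968), 1200011I18Rik (r = 0.955) and Il18rap (r = 0.94). For Btla, which was not above background in 2 of the 8 groups, they were Eef1g, Zfp566 and LOC100048613 (r = 0.89, 0.884 and 0.873). None is given for Pdcd1, which was not above background in 5 of the 8.

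The ligands, related receptors, signalling partners and activation markers of these receptors formed a list of 77 genes, of which 70 had an entry and 42 were tested. With Akti1/2 against control, 0 were called at 0 h and 16 at 2 h, with 4 higher and 12 lower. At 6 h 20 were called, with 3 higher and 17 lower, and at 12 h 25, with 11 higher and 14 lower. The 11 include Cd7, which was above background only on the 2 Akti1/2 arrays of 12 h and so had to be higher there. Of all 7395 genes tested, 28.4%, 37.6% and 49% were called at 2, 6 and 12 h, with 13.5%, 18.8% and 24.2% higher and 14.9%, 18.8% and 24.8% lower. Their median difference was -0.17, -0.32 and -0.18 at 2, 6 and 12 h, where that of all genes tested was -0.0064, -0.0086 and -0.019. The study on these samples, which used another score for the change from 0 h, placed Cd52 and Cd82, both in the list, among Akt-dependent genes. It placed Cd69 there too, and named Ctla4 among genes with enhanced expression under Akti1/2. Here Cd52 and Cd82 were lower with Akti1/2 at 6 and 12 h, and Ctla4 was higher. Cd69 was not lower, with differences of -0.057 ± 0.17 at 2 h, 0.61 ± 0.17 at 6 h and 1.02 ± 0.17 at 12 h.

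Of the ligands, 7 were tested, and both ligands of PD-1 changed sign over time. Cd274, encoding PD-L1, was lower with Akti1/2 at 2 h (-0.86 ± 0.18, limma, BH-adjusted p = 0.00461), was -0.16 ± 0.18 at 6 h and was higher at 12 h (0.90 ± 0.18, BH-adjusted p = 0.00134). Pdcd1lg2, encoding PD-L2, was -1.05 ± 0.16 at 2 h (BH-adjusted p = 0.000662), 0.12 ± 0.16 at 6 h and 0.83 ± 0.16 at 12 h (BH-adjusted p = 0.00086). Lgals3, encoding galectin-3, a ligand of LAG-3, was higher by 0.59 ± 0.11 at 6 h and by 1.87 ± 0.11 at 12 h, when the control arrays were 10.32 and 10.22 and the treated arrays 12.15 and 12.13. Lgals9, encoding galectin-9, a ligand of TIM-3, was higher at 2 h by 0.54 ± 0.14, and its differences at 6 and 12 h were -0.40 ± 0.14 and -0.58 ± 0.14, both called. Cd80, which encodes a ligand shared by CD28 and CTLA-4, was not called at any time, and at 12 h only 1 of its 4 arrays was above background.

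Among 10 other receptors of the immunoglobulin and SLAM families and related surface molecules, 5 were lower and 1 was higher at 6 h, while 5 were lower and 3 were higher at 12 h. The shares of all genes called were 37.6% and 49% at these times, about evenly split between the directions. The 3 higher at 12 h include Cd7, which was above background only on the 2 Akti1/2 arrays of that time. It was tested only because of these and so had to be higher there. Klrg1, an inhibitory receptor for cadherins, was -0.98 ± 0.11 at 6 h and -0.71 ± 0.11 at 12 h, and at 12 h it had risen by 1.78 ± 0.11 in control cells and by 0.97 ± 0.11 with Akti1/2. Cd81, a tetraspanin, was -0.89 ± 0.14 and -0.83 ± 0.14 at these times. Crtam, a receptor of activated T cells, was higher by 1.00 ± 0.25 at 6 h (BH-adjusted p = 0.00708) and by 0.72 ± 0.25 at 12 h (BH-adjusted p = 0.029), with 1 control array of each time (replicate 2 of 6 h and replicate 1 of 12 h) not above background. Of the 2 costimulators of the TNF receptor family that were tested, Tnfrsf9 and Tnfrsf18, 0 were called.

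Of 20 signalling partners, 1 was higher and 8 were lower at 6 h, and 5 were higher and 6 lower at 12 h, against the same 37.6% and 49% of all genes called. Sit1, an adaptor that restrains antigen receptor signals, was 8.31 and 8.06 at 12 h in control cells, against 6.28 and 6.71 in treated cells, with a difference of -1.70 ± 0.27 (BH-adjusted p = 0.000212). Dok2, another inhibitory adaptor, was -1.0 ± 0.14 at 6 h and -1.23 ± 0.14 at 12 h. Sh2d2a, the T cell specific adaptor, was -0.93 ± 0.11 and -1.07 ± 0.11. Ptpn6, the phosphatase SHP-1, was lower as well (-0.59 ± 0.10 and -0.64 ± 0.10), while Ptpn22, a phosphatase that acts on Lck, was higher (0.82 ± 0.20 and 1.07 ± 0.20). Cd274, Pdcd1lg2, Cd80, Ptpn6 and Ptpn22 were named after their values were seen.

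Of the 3 other activation markers tested, 3 were lower with Akti1/2 at 6 h, where Cd69 was higher, and 2 at 12 h. Of all genes tested, 18.8% were lower at 6 h and 24.8% at 12 h. Il2ra, encoding the alpha chain of the IL-2 receptor, was 10.49 and 10.38 in control cells at 6 h and 10.31 and 10.15 at 12 h, against 8.62 and 9.36 and 7.78 and 8.42 with Akti1/2. The treated arrays lay below the control arrays at both times, with differences of -1.44 ± 0.22 and -2.13 ± 0.22 (limma, BH-adjusted p = 0.000336 and 9.16e-06). Tfrc, the transferrin receptor, was -0.53 ± 0.11 and -0.66 ± 0.11. Cd44 was called only at 6 h (-0.42 ± 0.14), and at 12 h it was not above background on any array.

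**Figure D4:**
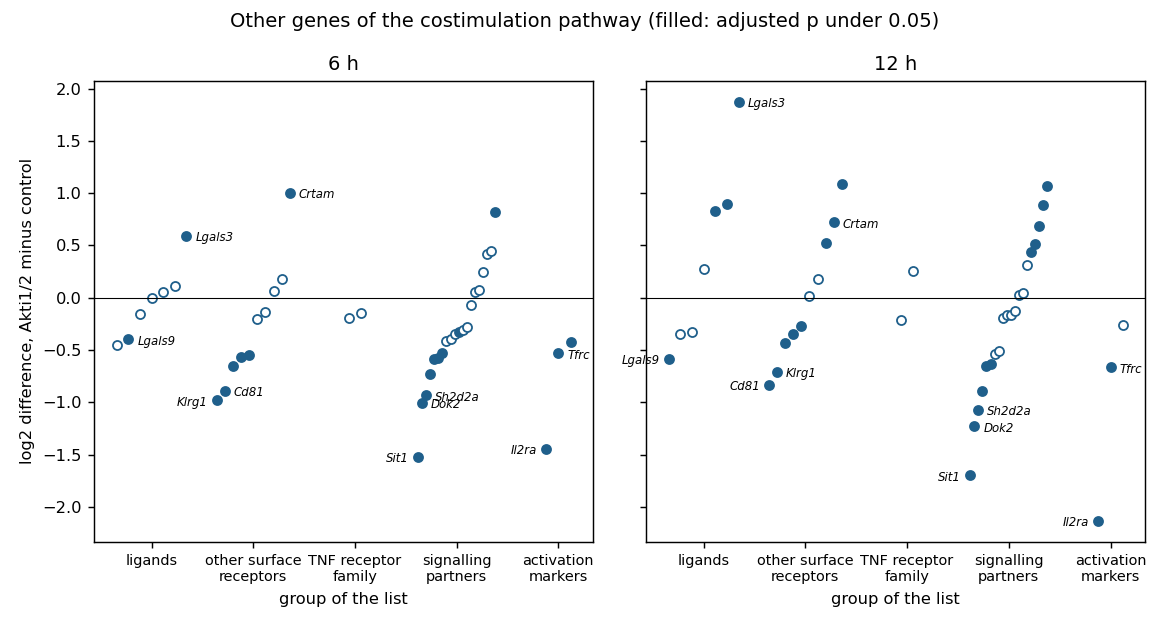
Log2 difference, Akti1/2 minus control (vertical axis), at 6 h (left) and 12 h (right) for the 42 genes of the costimulation list that were tested, by group of the list and in order of size within it, filled where limma's adjusted p was under 0.05. At 12 h the values ran from -2.13 for Il2ra to 1.87 for Lgals3, and Cd7 was above background only on the treated arrays of that time.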

How the data were processed

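RNA of the 16 samples was hybridized to Illumina mouse RefSeq arrays. Per the file headers, the authors exported 1 intensity per gene and array from the scanner software, with no normalization and no background subtraction. The deposited intensity values are linear, for 18138 genes and 798 negative controls. Fold changes and scores of the authors' own comparisons were not used here. Columns were matched to samples through the sample labels.

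Intensities were processed with neqc (normexp on the negative controls, offset 16, quantile, log2) in limma 3.58.1 under R 4.3.3. Genes above background (detection p under 0.01, from the negative controls) on 2 or more arrays were tested with lmFit, contrasts.fit and eBayes, with all 8 groups in 1 fit (8 residual and 4.26 prior degrees of freedom) and Benjamini-Hochberg adjustment over 7395 genes per comparison. A group with no array above background gives a bound only. Tables and figures were made with Python 3.11.15, pandas 2.3.3 and matplotlib 3.10.9.

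The receptor genes, gene lists and tests were chosen with earlier results of these data known. Besides the receptor genes, the text names up to 3 genes per group of the list that were called in the same direction at 6 and 12 h with the largest mean difference, and the 3 genes whose group means correlated best with each receptor gene except Pdcd1, left out after its values were seen. Alternatives were quantile normalization alone, equal array means, no filter, only genes above background on all arrays, a replicate or chip block, and leaving out each array. On simulated data (8142 genes), 100 changes of log2 size 1 and 100 of size 2 were planted in Akti1/2 against control at 6 h. Of these, 67% of size 1 and 91% of size 2 were recovered, with 3 calls not planted. In the data 37.6% of genes were called in that comparison, a far larger share than was planted. The BH threshold depends on that share, so these rates do not carry over to the data.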

Additional observations from a re-analysis of the deposited data

Results flagged for a closer look

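The change from 0 h differed between Akti1/2 and control cells, by the test of that difference (limma, adjusted p under 0.05), for 5 receptor genes. On the log2 scale it was 0.87, 1.19 and 1.32 for Cd28 and 0.76, 1.02 and 1.26 for Ctla4 at 2, 6 and 12 h. It was 0.70 at 6 h and 1.04 at 12 h for Lag3. For Cd69 it was 1.12 at 12 h. For Cd160 it was -1.76 at 6 h and -2.98 at 12 h, where both Akti1/2 arrays were not above background, so that the latter is a value of the fit and not a measured size.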

How the results depend on the processing

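Of 2595 values of single receptor genes under the alternatives, 2448 kept their direction and side of the threshold or were called in neither fit, 118 lost a call, 29 gained one and 0 reversed. The calls of Cd28 and Ctla4 in Akti1/2 against control cells at 2, 6 and 12 h held in all 22 alternatives, and those of Lag3 and Cd160 at 6 and 12 h and of Cd69 at 12 h in every alternative in which the gene was tested. The number of receptor genes called in control cells at 2 h was 3 by quantile normalization without background correction, 2 with arrays scaled to the same mean and 3 with only genes above background on all arrays, against 1 as reported, where 12.3%, 11.6%, 13.5% and 10.3% of all genes were called. With only those genes, which leave 5 receptor genes, it was 5 with Akti1/2 at 6 h, 4 in Akti1/2 against control at 6 h and 4 at 12 h (39%, 44% and 56.2% of all such genes). Without a filter, 1 difference in response was called at 2 h (2.48% of all genes). The other settings kept these counts within 1.5 times.

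With 1 array left out, 1 to 3, 2 to 3 and 2 to 3 receptor genes were called in control cells at 2, 6 and 12 h, 6 to 7, 5 to 8 and 5 to 6 with Akti1/2, 0 to 1, 3 to 6, 4 to 7 and 5 to 7 in Akti1/2 against control at 0, 2, 6 and 12 h, and 0 to 3, 3 to 6 and 5 to 6 in the difference in response. Between 2 and 12 h the counts were 2 to 5 in control cells and 3 in each fit with Akti1/2. In Akti1/2 against control, 3 were called at 2 h without control replicate 2 or Akti1/2 replicate 1 of that time, and 4 at 6 h without control replicate 2 or Akti1/2 replicate 2. With Akti1/2 at 6 h, 5 were called without Akti1/2 replicate 1 of 0 h, and in control cells between 2 and 12 h, 2 without control replicate 1 of 12 h. In control cells at 2 h, 3 were called without either Akti1/2 array of 0 h, and 2 without control replicate 1 of 2 h or either Akti1/2 array of 6 h. In the difference in response at 2 h, 0 were called without either control array of 0 h, Akti1/2 replicate 1 of 0 h or either Akti1/2 array of 2 h, and 1 without either control array of 2 h or Akti1/2 replicate 2 of 0 h. Of the 42 other genes of the list, 3 to 12, 14 to 22 and 17 to 24 were called in control cells (10, 22 and 22 with every array), 14 to 25, 17 to 21 and 20 to 24 with Akti1/2 (24, 19 and 24), 0 in each fit, 11 to 17, 15 to 21 and 19 to 25 in Akti1/2 against control (0, 16, 20 and 25), 4 to 9, 8 to 14 and 14 to 21 in the difference in response (7, 11 and 20), and 19 to 26 and 22 to 26 between 2 and 12 h (25 and 26). The share of all genes called moved as well, over 3.55% to 13.4%, 16.3% to 29.9% and 17.4% to 30.6% in control cells and 15.8% to 32.2%, 27% to 38.6% and 37.7% to 51.4% in Akti1/2 against control at 2, 6 and 12 h. The shares of the other comparisons moved too. In each of them the lowest share lay below the share given above with every array. Among them the fall was largest by proportion for the difference in response at 2 h, where the receptor count reached 0. The counts with 1 array left out are therefore not read as a result about the receptor genes or the list. These fits give a group with 1 array the spread of the others.

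The sources used here do not say whether equal replicate numbers mark paired samples, and the values showed little sign of it. Over 28 pairs of groups, the correlation of same-numbered deviations had a median of 0.017 (range -0.30 to 0.26), and 7 pairs exceeded 0.1. With the replicate number as a block, 5 receptor genes were called at 12 h in Akti1/2 against control (7 without it) and 3 in the difference in response at 6 h (4 without it). The block ended the calls of Pdcd1 and Btla at 12 h and of Lag3 in that difference, and changed no other call of a receptor gene. Without the block these calls lay just under the threshold (limma, BH-adjusted p = 0.0492, 0.0477 and 0.0483). Scaling to the same mean shifted the median of all genes by 0.12 in the difference in response at 6 h. Signal over background limits Pdcd1, Btla and, with Akti1/2 at 12 h, Cd160.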
